A study of Rattus norvegicus with 4 samples.

Results

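Macrophages that take up cell debris and lipoproteins have to move the lipid on, and 10 genes known for this work were followed in the rat middle ear: Apoe, Apoc1, Gpnmb, Trem2, Tyrobp, Lipa, Abca1, Abcg1, Cd36 and Fabp5. They were chosen by name, with earlier results of these data known. Where several features of the expression table shared a symbol, the feature with the highest mean level was taken. All 10 were found among the 27832 features, and all 10 were among the 15944 whose mean level reached 1 FPKM, a level scaled to transcript length and to the number of mapped fragments. RNA was taken from the scraped middle ear mucosa of SD (Sprague-Dawley) rats 1 week after injection through the eardrum into the cavity of medium alone (media) or of 50 µL of a suspension of bacteria, which were methicillin-resistant Staphylococcus aureus (MRSA), Pseudomonas aeruginosa (PA) or a mixed culture of both (MRSA + PA). Each condition is represented by 1 library, so 4 libraries in all, no spread between animals can be given and no test was made. Whether a library pools several rats, and the age of the rats, are not given in the sources used here. The FPKM table holds no read count for any gene, so values are given without a counting interval. Where 4 values stand together without names, they follow the order medium, MRSA, PA, mixed culture.

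In a phagocyte that has engulfed lipid, receptors at the surface bind and take up lipoproteins and membrane fragments, acid lipase frees cholesterol and fatty acids in the lysosome, small binding proteins carry fatty acids through the cytosol, and transporters hand cholesterol to apolipoproteins outside the cell. Liver X receptors (LXR) are nuclear receptors that sense oxidised cholesterol and switch on Abca1, Abcg1 and Apoe. Cells with this programme are known as foam cells in the artery wall and as lipid-associated macrophages in fat, and TREM2 and its adaptor TYROBP are needed for the full programme in mice.

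Promoters of a transporter and of a lysosomal glycoprotein from this group are shown because their known regulatory letters can be read in the rat sequence. The sequences are RefSeq windows of build GRCr8, from 250 bases before to 50 bases after a transcript start, written in the direction of transcription, and such windows were matched for 7 of the 10 genes. Tyrobp, Abcg1 and Fabp5 are named only. Capitals mark a CACGTG E-box and, further along, a match to a DR4 form on the reverse strand in Abca1 (chr5:72596424-72596723, minus strand), and a match to TCATGTGA on the reverse strand in Gpnmb (chr4:79340878-79341177, plus strand).
Abca1: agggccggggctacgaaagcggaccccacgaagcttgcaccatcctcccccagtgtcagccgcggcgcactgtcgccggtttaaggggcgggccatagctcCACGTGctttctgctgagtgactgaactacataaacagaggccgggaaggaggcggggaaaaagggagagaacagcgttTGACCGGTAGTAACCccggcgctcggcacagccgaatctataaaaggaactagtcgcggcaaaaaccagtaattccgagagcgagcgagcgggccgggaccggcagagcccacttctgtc
Gpnmb: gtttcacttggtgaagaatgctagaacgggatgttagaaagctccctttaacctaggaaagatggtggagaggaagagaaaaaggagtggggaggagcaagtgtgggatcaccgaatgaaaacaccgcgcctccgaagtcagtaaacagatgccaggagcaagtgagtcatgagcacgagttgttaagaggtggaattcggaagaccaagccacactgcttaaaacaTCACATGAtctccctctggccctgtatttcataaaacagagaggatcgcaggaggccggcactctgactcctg

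The DR4 form searched is that of the LXR element of the human ABCA1 promoter, a spaced repeat of imperfect AGGTCA units, and TCATGTGA is the M-box, a letter string bound by MITF, a transcription factor of lysosome genes and pigment cells. Both strands were searched in 33469 windows of all genes, and the motifs do not overlap each other in these windows. The E-box starts 149 bases and the DR4 form 70 bases before the Abca1 start. The other matched genes held neither, and the M-box starts 23 bases before the Gpnmb start. Over all windows the E-box was in 6.42%, the DR4 form in 0.00896% (3 windows) and the M-box in 1.16%. The strict DR4 of LXR (0.00598% of windows) and the DR1 of PPAR (0.0538%), in which exact AGGTCA units repeat after a longer or a shorter gap, and the PU.1 core (GAGGAAGT, 2.42%) were in none of the 10 windows of the 7 genes. A match is a string of letters, and no binding was measured.

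Every one of the 10 genes had its lowest level in the media library. At least 2-fold above media were 10 of 10 after MRSA, 8 after PA and 9 after both species, against 8.47%, 10% and 7.78% of all features past the filter. Rescaling to equal FPKM sums gave 9 in PA (over features of at least 300 bp) and 10 in MRSA + PA (over all features). In none of the 3 libraries was a member at least 2-fold lower (4.95%, 7.80% and 7.83% of all features). The median log2 difference from media of the 10 genes was 1.93 after MRSA, 1.69 after PA and 1.40 after both species, where that of all features was 0.05, 0.07 and 0.05. Each log2 difference compares 1 library with another, with 0.1 FPKM added to both levels. Media was lowest for 39.7% of all features, and 5.12% were at least 2-fold above media in all 3 inoculated libraries, as were 7 of the 10 genes. The 3 comparisons share the media library, so a deviation of that library would move all of them. In bulk tissue, more cells of a type and more RNA per cell cannot be told apart.

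**Figure D1:**
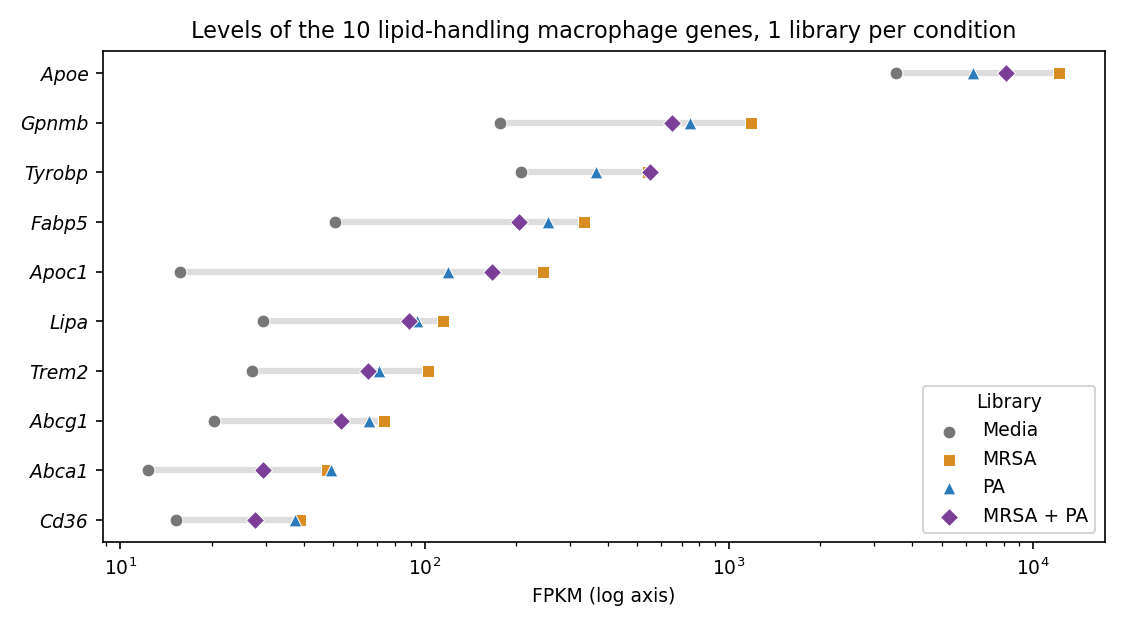
Level of each of the 10 genes in FPKM (log axis) in the media, MRSA, PA and MRSA + PA libraries (1 point per library, grey bar from lowest to highest). The media point is leftmost for all 10 genes, and the widest bar is that of Apoc1, from 15.7 to 245 FPKM.

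**Figure D2:**
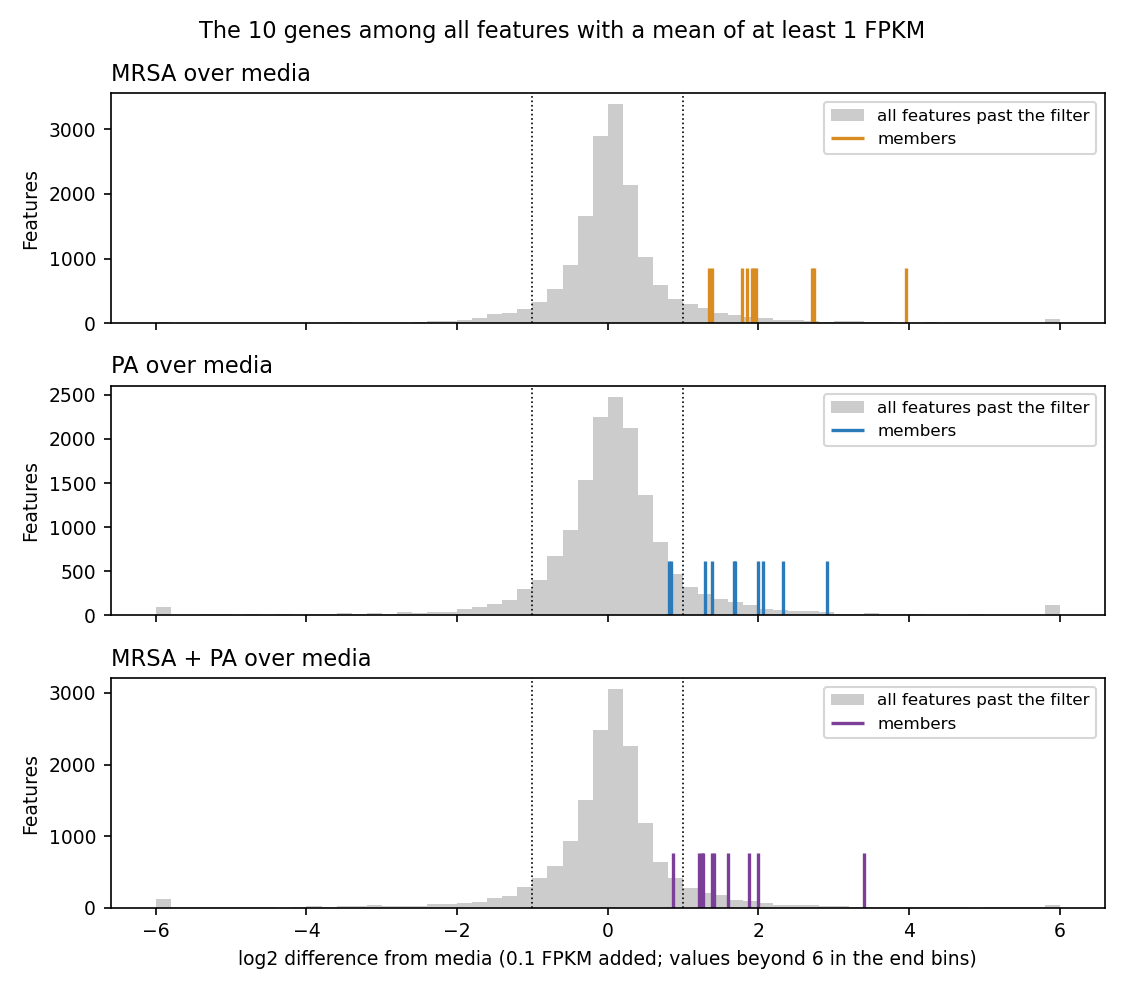
Number of features by log2 difference from media (grey, 15944 features past the filter, dotted lines at 2-fold) with the 10 genes as coloured lines, for MRSA, PA and MRSA + PA. All 10 lines lie right of the upper dotted line after MRSA, 8 after PA and 9 after both species.

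The apolipoproteins gave both the highest level and the largest difference. Apoe, the main apolipoprotein that macrophages release to accept cholesterol, stood at 3539.6 FPKM with medium, 12183.5 after MRSA, 6352 after PA and 8170.2 after both species. It ranked 40th of all features with medium, 7th after MRSA and 19th after PA and after both species. Apoe alone made up between 77.9% and 86.4% of the summed FPKM of the 10 genes. Its ratio to media was 3.44 after MRSA, 1.79 after PA and 2.31 after both species, so that PA stayed under 2-fold, though it passed 2-fold (log2 1.01) with libraries rescaled to equal FPKM sums over features of at least 300 bp.

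Apoc1, a small apolipoprotein that restrains lipoprotein uptake and lipid transfer, was at 15.7 FPKM with medium, 245 after MRSA, 119 after PA and 167 after both species. These are ratios to media of 15.6, 7.60 and 10.7, the largest of the 10 genes in each library. Apoc1 and Apoe are neighbours on the minus strand of chromosome 1, with 2973 bp between their features, and in the mouse and in humans they share distant macrophage enhancers. Apoc1 stood at 0.442 FPKM per 100 FPKM of Apoe in media and at 2.01, 1.87 and 2.04 in MRSA, PA and MRSA + PA, so the ratio of the neighbours was alike in the inoculated libraries and lower in media. Apoc4, next in the same cluster, was at 1.01 FPKM with medium, 7.35 after MRSA, 4.30 after PA and 6.01 after both species. Apoc2, also in the cluster and an activator of lipoprotein lipase, was listed at 0 in media and under 0.5 FPKM elsewhere (0.193, 0.0905 and 0.497). Tomm40, a mitochondrial import pore gene on the other side of Apoe, was at 18.3, 19.5, 15.9 and 21.6 FPKM, so all 4 libraries were close for it.

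TREM2 is a surface receptor for lipids and apolipoproteins, and TYROBP (DAP12) is the signalling adaptor it shares with other receptors of myeloid and NK cells. Trem2 (chromosome 9) was at 27.2 FPKM with medium, 103 after MRSA, 70.8 after PA and 65.3 after both species, which is 3.78, 2.61 and 2.40 times media. Tyrobp (chromosome 1) was at 207 FPKM with medium, 541 after MRSA, 365 after PA and 552 after both species, which is 2.61, 1.76 and 2.66 times media. The adaptor was thus the only one of the 10 with its highest value in MRSA + PA, 1.02 times that in MRSA. Per 100 FPKM of Tyrobp there were 13.1 of Trem2 with medium, 19.0 after MRSA, 19.4 after PA and 11.8 after both species.

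Other cells also use TYROBP, and their markers differed between the libraries. The 6 NK cell markers summed to 22.5 FPKM with medium, 59.8 after MRSA, 25.3 after PA and 64.9 after both species, with Gzmb at 0 in media and under 0.1 elsewhere. This sum had the order of Tyrobp, as did Ncr1 and Klrd1 singly. Klrk1 and Prf1 were highest in MRSA (15.7 and 7.93 FPKM, against 14.9 and 6.84 in MRSA + PA). Nkg7 was lower in PA (4.68 FPKM) than in media (9.87 FPKM). The 7 osteoclast markers, none of them at 0, summed to 1768, 1864, 996 and 3666 FPKM, lowest in PA and highest with both species. Ocstamp alone of them was lowest in media, at 2.81, 7.40, 3.87 and 8.15 FPKM. Hcst (DAP10), the adaptor gene beside Tyrobp, which works with NK receptors, was at 14.9, 49.1, 33.8 and 56.4 FPKM, with PA lowest of the inoculated libraries as for Tyrobp. The part of these cells in the Tyrobp levels was not tested.

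Signalling genes downstream of or beside TREM2 and TYROBP were also above media. Of 11 such genes past the filter, 7 were at least 2-fold higher after MRSA, 6 after PA and 6 after both species, and 0 were at least 2-fold lower. The list medians were 1.11, 1.00 and 1.09 (log2). Trem1, the inflammatory relative of Trem2 that also signals through TYROBP, was at 1.00 FPKM with medium, 7.36 after MRSA, 7.44 after PA and 6.77 after both species. Vav1, an exchange factor for small GTPases, was at 9.88, 32.9, 29.1 and 29.5 FPKM. Adam10 and Adam17, proteases that cut TREM2 from the cell surface, had log2 differences between 0.46 and 0.85 and stayed under 2-fold in each library. Ptpn6, a phosphatase that damps such signals, was at 27.9, 60.1, 49.3 and 59.5 FPKM.

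GPNMB and LIPA act on the lysosome side. Gpnmb (chromosome 4), a membrane glycoprotein of phagocytes, osteoclasts and pigment cells whose window is printed above, had log2 differences from media of 2.74 after MRSA, 2.07 after PA and 1.87 after both species, from levels of 177, 1187, 743 and 648 FPKM. It was the second highest of the 10 genes in each inoculated library. Melanocyte markers were near 0, with 5 genes summing to between 1.64 and 4.50 FPKM and Tyr at 0 in the 3 inoculated libraries. The part of osteoclasts, whose markers are given above, in the Gpnmb levels was not tested.

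Lipa (chromosome 1), the acid lipase that splits cholesteryl esters, was at 29.3 FPKM with medium, 115 after MRSA, 94.8 after PA and 89.0 after both species, which is 3.93, 3.23 and 3.04 times media. The 3 inoculated libraries lay within 1.29-fold of each other, the narrowest spread of the 10 genes. Its feature spans 105864 bp where RefSeq gives the gene 33413 bp, and it overlaps Ifit2, Ifit3 and Ifit1, interferon-induced genes on the other strand. The overlap is one of whole spans, introns included, and shared exons were not looked for. Where exons of such genes overlap, reads cannot be told apart, since the counting is not stated to use strand. Ifit2, the highest of these, was at 15.6, 14.9, 17.7 and 12.7 FPKM in the 4 libraries, all below the level of Lipa.

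Among 20 other genes of lysosomal lipid breakdown, 5 were at least 2-fold above media after MRSA, 4 after PA and 2 after both species, and 0 were at least 2-fold lower. The list medians were 0.53, 0.53 and 0.56 (log2), below those of the 10 genes. Gm2a, the activator protein for ganglioside breakdown, was at 174 FPKM with medium, 611 after MRSA, 386 after PA and 400.3 after both species. Ctsd, an aspartic protease of the lysosome, was at 230.1, 733, 543 and 517 FPKM. Psap, the precursor of the saposins that help lipid hydrolases, was at 627, 1419, 1269.6 and 1237 FPKM. Ctsb and Ctsl, cysteine proteases, had log2 differences of 1.04, 0.95 and 0.75 and of 0.50, 0.52 and 0.32, and 15, 16 and 18 of the 20 genes were within 2-fold of media in MRSA, PA and MRSA + PA.

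ABCA1 and ABCG1 carry cholesterol out of the cell, ABCA1 to lipid-poor apolipoproteins and ABCG1 to mature particles. Abca1 (chromosome 5) was at 12.4 FPKM with medium, 47.8 after MRSA, 49.4 after PA and 29.5 after both species, and was the only one of the 10 highest in PA. Abcg1 (chromosome 20) was at 20.4, 73.8, 65.7 and 53.3 FPKM, with MRSA highest. Their ratios to media were 3.86 and 3.62 after MRSA, 3.99 and 3.22 after PA, and 2.39 and 2.61 after both species, so both transporters were at least 2-fold above media in each library. An unnamed feature overlaps the span of the Abca1 feature on the other strand, with 1.28, 12.9, 10.8 and 6.10 FPKM. Shared exons were not looked for, and where exons overlap its reads cannot be told apart from those of Abca1.

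Other genes of LXR action and cholesterol efflux stayed closer to media. Of 8 past the filter, 0 were at least 2-fold higher or lower in any of the 3 libraries, and the medians were 0.32, 0.36 and 0.24 (log2). No feature was matched to NR1H3 of this list. Pltp, a phospholipid transfer protein and LXR target, was at 178 FPKM with medium, 297 after MRSA, 269 after PA and 222 after both species. Mylip, an LXR target and ubiquitin ligase, was at 125, 134, 136 and 113 FPKM, and Nr1h2, one of the LXR genes, was at 42.1, 43.6, 39.8 and 46.8 FPKM. Scarb1, a receptor that exchanges cholesterol with lipoproteins, was at 26.7, 41.8, 34.3 and 40.3 FPKM. Abca7, a relative of Abca1, had log2 differences of 0.49, 0.82 and 0.56.

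CD36 takes up oxidised lipoproteins and fatty acids, and FABP5 carries fatty acids inside the cell. Cd36 (chromosome 4) was at 15.2 FPKM with medium, 38.8 after MRSA, 37.4 after PA and 27.7 after both species, the smallest ratios to media of the 10 genes in MRSA (2.55) and in MRSA + PA (1.82), the latter above 2-fold (log2 1.04) with equal FPKM sums over all features. Cd36 is also made by fat, muscle and capillary cells, and the part of these cells in the Cd36 levels was not tested. Adipocyte markers (4 genes) summed to 46.5 FPKM with medium, 8.86 after MRSA, 1.40 after PA and 0.512 after both species, with Plin1 and Lep at 0 in MRSA + PA, and skeletal muscle markers (6 genes) summed to 5035, 1857, 2.56 and 0.768. Endothelial markers (5 genes) summed to 124, 96.6, 109 and 119.7 FPKM, with all 5 above 0, and among them Cdh5 (19.5, 22.1, 30.8 and 23.7 FPKM) and Kdr (11.1, 13.2, 13.1 and 14.6 FPKM) were higher in each inoculated library than in media. Of 3 features named Cd36, the other 2 were under 2 FPKM in every library, and 1 of them overlaps the feature used on the same strand.

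Fabp5 (chromosome 2) was at 50.9 FPKM with medium, 334 after MRSA, 255 after PA and 204 after both species, which is 6.57, 5.01 and 4.0 times media. Next to Apoc1 and with Gpnmb it was among the 3 genes furthest above media. A second feature named Fabp5, of 399 bp on chromosome 1, was listed at 0 in all 4 libraries. Fabp5 is also a gene of stratified epithelium, and keratinocyte markers (6 genes found) summed to 223 FPKM with medium, 259 after MRSA, 1959 after PA and 433 after both species. These markers were highest in PA, where Krt1 reached 465 FPKM against under 1 in the other libraries, while Fabp5 was highest in MRSA. The part of epithelium in the Fabp5 level in PA was not tested.

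Scavenger and lipoprotein receptors beside Cd36 were split. Of 8 past the filter, the same 2 were at least 2-fold above media in each library, Olr1 and Msr1, and the medians were -0.05, -0.02 and -0.03 (log2). Olr1, a receptor for oxidised LDL, was at 1.00 FPKM with medium, 7.15 after MRSA, 15.5 after PA and 8.16 after both species. Msr1, the class A scavenger receptor of macrophages, was at 6.34, 22.6, 26.8 and 18.1 FPKM, so both were highest in PA. Lrp1, a large receptor for Apoe-bearing particles, was at 69.6, 56.3, 63.1 and 52.5 FPKM, highest in media.

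Lipid storage genes lay on both sides of media. Of 14 genes of lipid droplets and PPARG action, 4 were at least 2-fold above media after MRSA, 3 after PA and 1 after both species, and 0 were at least 2-fold lower. The list medians were 0.47, 0.27 and 0.22 (log2). Soat1, which esterifies cholesterol for storage, was at 17.1 FPKM with medium, 42.2 after MRSA, 47.5 after PA and 39.1 after both species. Plin2, the coat protein of droplets in macrophages, was at 26.8, 66.3, 78.0 and 52.6 FPKM, and Lpl, lipoprotein lipase, was at 46.3, 142, 82.2 and 76.3 FPKM. Fabp4, the fatty acid carrier shared by fat cells and macrophages, was at 113, 264, 113 and 106 FPKM, so that unlike Fabp5 it exceeded media by 2-fold in MRSA alone of the 3. Below media in each inoculated library were Acsl1, which activates fatty acids (log2 -0.52, -0.72 and -0.90), Pnpla2, a triglyceride lipase of droplets (-0.25, -0.30 and -0.51), Mgll, a monoglyceride lipase (-0.15, -0.59 and -0.41), and Dgat1, which makes triglyceride (-0.09, -0.33 and -0.08).

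Cholesterol synthesis, which cells turn down when sterol is plentiful, was near or below media. Of 16 genes past the filter, 0 were at least 2-fold higher in any library, and 2 were at least 2-fold lower in MRSA (Idi1 among them), 1 in PA (Insig1) and 0 in MRSA + PA. The list medians were -0.32, -0.13 and 0.02 (log2). Insig1, a sterol-regulated brake on the pathway, was at 44.3 FPKM with medium, 26.2 after MRSA, 19.6 after PA and 46.9 after both species. Idi1, an isoprenoid isomerase, was at 12.9, 6.32, 6.41 and 11.8 FPKM, lower in MRSA and PA than in the other libraries.

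**Figure D3:**
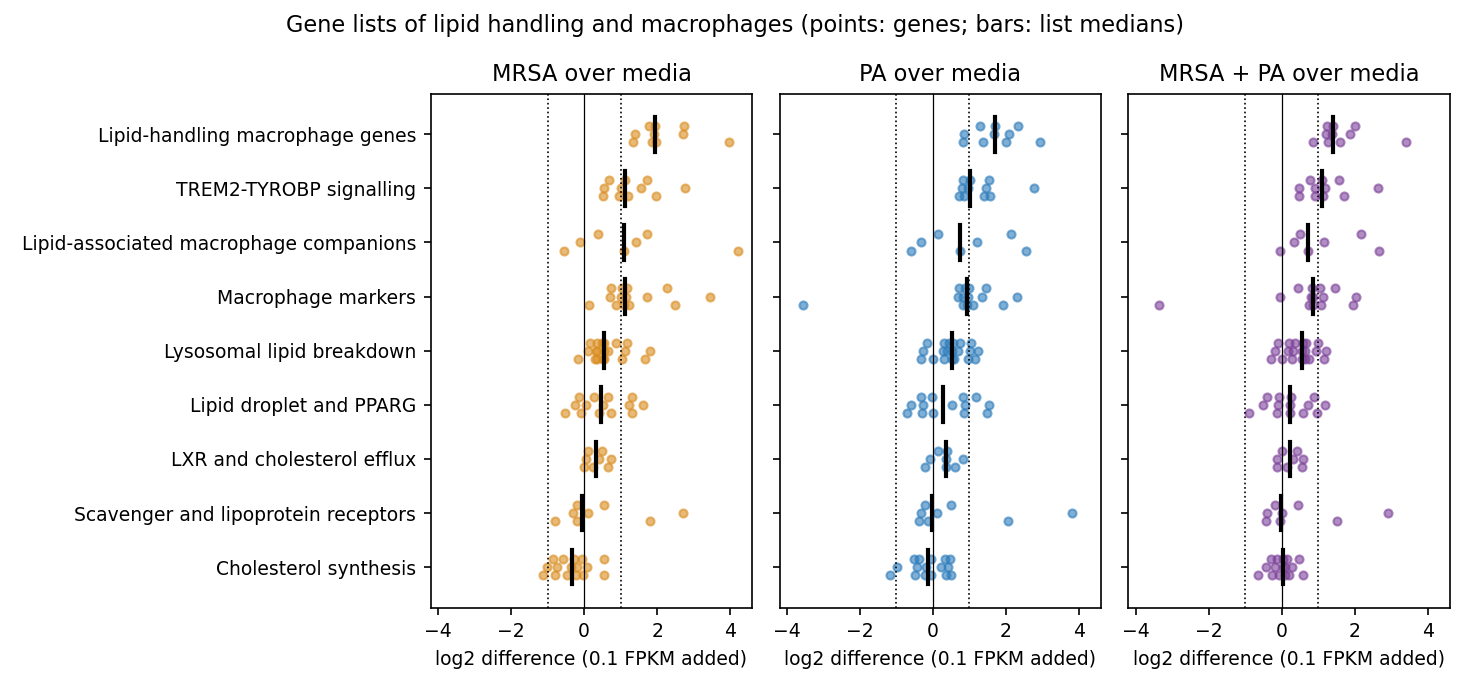
Log2 difference from media (horizontal axis, 0.1 FPKM added) of each gene past the filter in the group of 10 and in 8 lists, for MRSA, PA and MRSA + PA (points: genes, black bars: list medians, dotted lines at 2-fold). Of the lists drawn, the group of 10 has the median furthest right in each panel (1.93, 1.69 and 1.40), and the cholesterol synthesis list lies around 0.

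The label of the group was set against general macrophage markers. Of 15 markers 14 were found and passed the filter (no feature was matched to CD68), and their medians were 1.12 after MRSA, 0.94 after PA and 0.86 after both species (log2). At least 2-fold above media were 10, 5 and 6 of them. Their summed level was 749 FPKM with medium, 1769 after MRSA, 1449 after PA and 1489.8 after both species, and none of the 14 was at 0, so the defining markers were present in each library, the media library included. C1qa, a complement gene of tissue macrophages, was at 111, 237, 204 and 234 FPKM, C1qb, its partner chain, at 98.4, 223, 190.5 and 214 FPKM, and Aif1, an actin-binding protein of macrophages, at 163, 361, 269 and 285 FPKM. Emr1 (Adgre1), a surface receptor of macrophages, was at 19.7, 112, 74.3 and 77.0 FPKM, and Itgam, the CD11b integrin chain, at 8.03, 39.3, 40.1 and 33.1 FPKM. Lyz2 went another way, with 9.62, 106, 0.731 and 0.850 FPKM, but its feature overlaps Lyz1 on the other strand (1436, 10972, 7802 and 10356 FPKM), so reads of these near-identical lysozyme genes cannot be told apart.

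Against the median of these markers, the log2 difference from media was larger for 10 of the 10 genes after MRSA, 8 after PA and 10 after both species, where 7.31%, 10.8% and 9.50% of all features exceeded it. The exceptions were Apoe and Tyrobp in PA, with relative log2 differences of -0.10 and -0.13. Apoc1 exceeded the marker median by 2.84, 1.97 and 2.55, Gpnmb by 1.62, 1.12 and 1.02 and Fabp5 by 1.59, 1.38 and 1.14 (log2). These 3 were thus over 2-fold beyond the marker median in each library, but only Apoc1 was above every single marker. In MRSA + PA, the log2 differences of Emr1 (1.96) and Itgam (2.03) were above that of Gpnmb (1.87). Itgam was also above Fabp5 there, and the other markers were below both genes. In PA only Itgam was above Gpnmb, and in MRSA only Lyz2 was. Cd36 was closest to the marker median in MRSA + PA, at 0.0062. With Csf1r, the receptor for the macrophage growth factor, as the only reference, 8 of the 10 were over 2-fold beyond it in MRSA, against 3 with the marker median. In PA and in MRSA + PA the counts were 4 and 3 with either reference. Csf1r itself was at 83.8, 139, 149 and 151 FPKM, with little difference among the inoculated libraries.

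Genes often found with this programme in lipid-associated macrophages did not all follow. Of 7 such genes, 4 were at least 2-fold above media after MRSA, 3 after PA and 3 after both species. Mmp12, the macrophage elastase, was at 13.2 FPKM with medium, 246 after MRSA, 77.6 after PA and 85.1 after both species, a larger difference in MRSA than any of the 10 genes (log2 4.21). Ctss, a cysteine protease of antigen presentation, was at 111, 296, 257 and 247 FPKM, and Itgax, the CD11c integrin chain, at 3.55, 12.0, 16.0 and 16.2 FPKM. Cd63 and Cd9, tetraspanins of many cell types, had log2 differences between -0.32 and 0.38. Spp1, osteopontin, which osteoclasts and bone cells also make, had log2 differences of -0.54, -0.60 and 0.72, lowest in PA and highest in MRSA + PA as the summed osteoclast markers were.

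The medians of the 10 genes were closer to 0 between the inocula than against media. MRSA was the highest of the 4 libraries for 8 of the 10 genes, where this held for 18.7% of all features and for 23.6% of those with media lowest, and 9.35% had both media lowest and MRSA highest. MRSA + PA was below both single inocula for 7 of the 10 genes, against 34.4% of all features and 34.0% of those with media lowest. MRSA + PA was below MRSA for 9 of the 10 genes (51.4% of all features), by a median log2 difference of -0.56, and below PA for 7 (53.8% of all features), by a median of -0.16. PA was below MRSA for 9 (50.4% of all features), by a median of -0.46. These counts moved when libraries were rescaled to equal FPKM sums over all features: MRSA was then highest for 5 genes, MRSA + PA below both single inocula for 4, below MRSA for 8 and below PA for 4, and PA below MRSA for 7. In the comparison of MRSA + PA with MRSA 0 genes were 2-fold apart, where 1.61% of all features were at least 2-fold higher and 5.73% lower. In that of MRSA + PA with PA there were also 0 (2.50% higher and 4.27% lower). In that of PA with MRSA 1 gene was 2-fold lower, Apoc1, where 5.03% of all features were lower and 3.54% higher.

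The order of the inoculated libraries was not the same for all genes. It was MRSA, PA, MRSA + PA from high to low for 6 genes, Gpnmb, Trem2, Lipa, Abcg1, Cd36 and Fabp5, of which all but Fabp5 changed order with equal FPKM sums over all features. For the apolipoproteins Apoe and Apoc1 it was MRSA, MRSA + PA, PA, with MRSA + PA 1.29 and 1.40 times PA. Tyrobp had the order MRSA + PA, MRSA, PA, with MRSA + PA 1.51 times PA, and Abca1 the order PA, MRSA, MRSA + PA, with MRSA + PA 0.598 times PA. Within 1 library per condition, the neighbours in these orders cannot be shown to differ: MRSA and PA were 1.03-fold apart for Abca1 and MRSA and MRSA + PA 1.02-fold apart for Tyrobp.

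**Figure D4:**
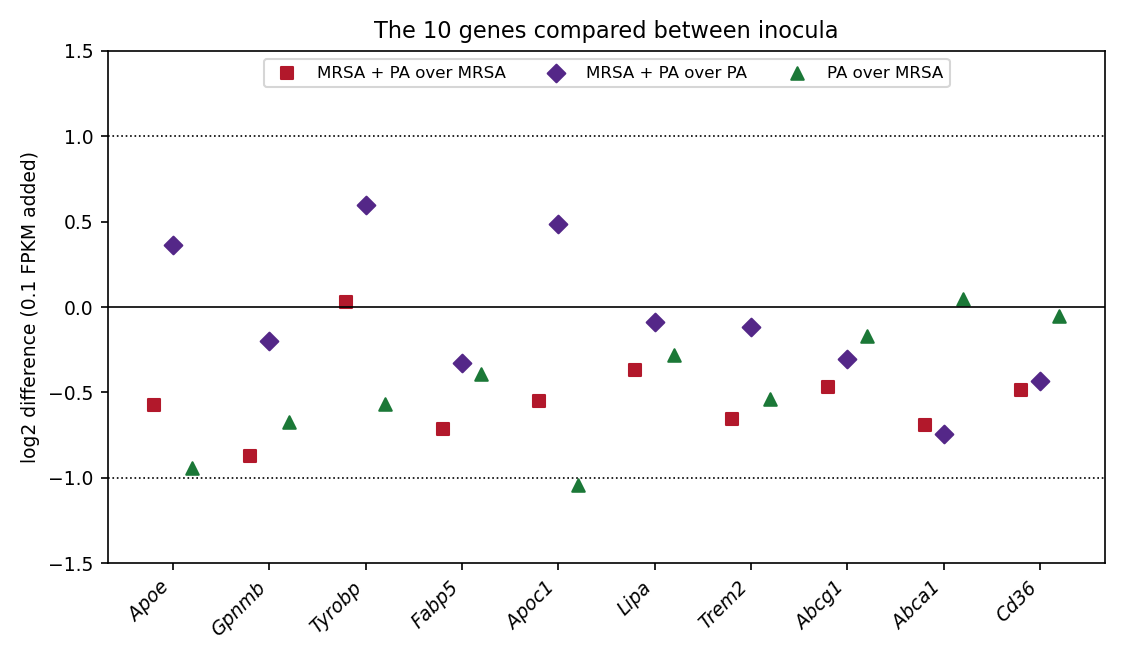
Log2 difference (vertical axis, 0.1 FPKM added, dotted lines at 2-fold) of the 10 genes for MRSA + PA over MRSA, MRSA + PA over PA and PA over MRSA, genes ordered by mean level. Apoe, Tyrobp and Apoc1 have MRSA + PA above PA (0.36, 0.60 and 0.49), and the other 7 genes have it below, of which Gpnmb, Trem2 and Lipa come out above PA with equal FPKM sums over all features (0.00075, 0.08 and 0.11).

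Genes with the most similar pattern were looked up among 4851 other named genes with a mean of at least 20 FPKM, by the distance of their 3 log2 differences from media. Nearest to the median of the 10 genes were Lgmn, a lysosomal protease (distance 0.07), Selplg, the ligand of P-selectin (0.14), and C5ar1, a receptor for complement C5a (0.14). Lgmn was at 81.8 FPKM with medium, 315 after MRSA, 259 after PA and 206 after both species. Nearest to Trem2 were Evi2b (0.16), Tlr2 (0.21) and Cd300a (0.23), and nearest to Gpnmb were Cd72 (0.19), Emr1 (0.31) and Itgb2 (0.37). Likeness here rests on 3 differences from 1 shared media library.

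The 4 libraries were alike in breadth, with 21504 to 21898 features above 0. Features under 300 bp held between 49.2% and 63.1% of all FPKM, and over longer features the FPKM sums lay between 692953 and 779182. Apoe took 0.454% of the FPKM of these longer features with medium, 1.62% after MRSA, 0.917% after PA and 1.08% after both species. Fibroblast markers, of cells that also make Apoe, summed to 6047, 3441, 3188 and 2888 FPKM over 4 genes, and Schwann cell markers to 249, 86.2, 71.8 and 69.0 over 5 genes, both sums highest in media and no gene at 0. Of the fibroblast markers Pdgfra was lowest in media (36.7, 38.7, 48.4 and 51.7 FPKM). T cell markers (5 genes) summed to 27.4, 144, 140.1 and 144 FPKM, and neutrophil markers (5 genes found) to 368, 522, 579 and 538 FPKM. The T cell list medians of 2.57, 2.41 and 2.48 (log2) lay above those of the 10 genes in each library. So did that of the NK markers in MRSA + PA (1.85, with 1.82 and 0.51 in MRSA and PA). The keratinocyte median was above that of the 10 genes in PA (7.27, with 0.24 and 0.91 in MRSA and MRSA + PA). T cell and neutrophil sums were above media in each inoculated library, as the 10 genes were. The neutrophil sum was mostly S100a8 and S100a9, with log2 differences between 0.36 and 0.64, and the other neutrophil markers differed from it. Mmp8 was below media in PA (log2 -0.59). Csf3r and Cxcr2 had log2 differences of 3.70 and 3.38 in PA, above those of all 10 genes there. The part of T cells and neutrophils in the levels of the 10 genes was not tested.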

How the data were processed

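Poly(A) RNA of 4 libraries, 1 per condition, was sequenced by the authors on an Illumina HiSeq2500. The authors filtered reads on quality, mapped them with STAR 2.3.0e and quantified features with Cufflinks 2.1.1 (versions from the submitters' processing notes), and deposited FPKM for 27832 features. The methods name a human reference while the features lie on rat chromosomes, and the build of the table is not given, so only chromosomes are printed from it. Corrections for bias and for reads with several matches were applied, so reads of related genes may have been shared out. Sequencing kit and counting are not stated to keep strand. The treatment label describes MRSA for every sample, and groups were taken from the inoculum label. The authors' own comparison tables, which hold their log2 ratios, p-values and q-values and 12 columns repeating values of these libraries, were not used.

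From the FPKM, log2 ratios were computed after adding 0.1 FPKM, over the 15944 features whose mean reached 1 FPKM, and a 2-fold difference was the threshold for counting. With 1 library per condition nothing was tested. Members and lists were chosen with earlier results of these data known. Besides all members, the genes named come from the 3 highest and the 3 furthest from media of each pathway list and of the macrophage list, the 2 highest of each other cell type list, and the 3 genes most similar in pattern. Gzmb, Ncr1, Klrd1, Prf1, Ocstamp, Csf3r, Cxcr2, Mmp8, Plin1, Lep, Tyr, Krt1, Csf1r, Cdh5, Kdr, Pdgfra, Acsl1, Pnpla2, Mgll, Dgat1 and the genes beside or overlapping others (Apoc4, Apoc2, Tomm40, Hcst, Ifit2, Ifit3, Ifit1, Lyz1) were named after their values were seen, and the DR4 form of human ABCA1 and the M-box were also added then. Some list genes are not reported here. Each symbol was looked up, older symbols included, and no feature was matched to CD68, NR1H3, SCARF1, NGP, FCNB or LOR. Sequences are from RefSeq (GRCr8). The arithmetic was tested on simulated data. Python 3.11.15, numpy 2.4.6, pandas 2.3.3 and matplotlib 3.10.9 were used.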

Additional observations from a re-analysis of the deposited data

How the results depend on the processing

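The alternatives were 1 or 0.01 FPKM added, leaving the filter out or raising it to 5 FPKM, median-of-ratios scaling, equal FPKM sums over all features or over those of at least 300 bp, a 1.5-fold threshold, and the sum over features of a symbol. Each of 270 values of a single member against media under these kept its sign, and the largest shift was 0.27 (log2). The filter settings and the 1.5-fold threshold cannot change a single value, against media or between inocula. Values under these settings therefore kept their sign by construction. The sum over features of a symbol could change only Cd36. Apoe in PA passed 2-fold with equal sums over longer features (9 members) and Cd36 in MRSA + PA with equal sums over all features (10 members). Of 270 values between inocula, 263 kept their sign, and the others turned under equal FPKM sums, to values between 0.00075 and 0.19 (log2). Apoc1 was the 1 gene at least 2-fold lower in PA than in MRSA, and the count was 0 with either kind of equal FPKM sums. At 1.5-fold, 4 members were lower in MRSA + PA than in MRSA, 1 was higher and 1 lower in MRSA + PA than in PA, and 3 were lower in PA than in MRSA. The share of all features past 1.5-fold was not computed, so whether these counts are unusual cannot be said. Equal sums over all features moved the median of all features to -0.21 in MRSA and 0.23 in MRSA + PA, and equal sums over longer features to 0.24 in PA. The melanocyte median in MRSA + PA was 1.12 with 1 gene past the filter and -0.25 with no filter. Macrophage markers at least 2-fold higher in MRSA were 4 with equal sums over all features (10 as reported), and in PA 11 with equal sums over longer features (5 as reported). Of the lists, signalling genes higher in MRSA were 4 (7) and lysosomal genes 2 (5) in MRSA and 4 (2) in MRSA + PA with equal sums over all features, and lysosomal genes in PA were 2 (4) with median-of-ratios scaling, reported counts in parentheses. Leaving out Lyz2, chosen after the data were seen, gave marker medians of 1.09, 0.95 and 0.86. CD68 as the only reference was not run, since no feature was matched to it. No replicate could be left out. No paired analysis was possible because each group has 1 library. Without read counts per gene, counting error could not be set against small differences.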

Other observations

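The fatty acid binding protein family differed by member, and these genes were looked at after their values were seen. Fabp3, the heart and skeletal muscle form, was at 34.9 FPKM with medium, 12.8 after MRSA, 2.85 after PA and 3.55 after both species, lower in each inoculated library, as the skeletal muscle markers were. Fabp7, a form of glia, stayed under 1 FPKM in all 4 libraries, and Fabp1 and Fabp2, of liver and gut, were listed at 0. Fabp5 was thus the only one of these and Fabp4 that was at least 2-fold above media in all 3 inoculated libraries.

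Lyz1, a lysozyme gene, was at 1436 FPKM with medium, 10972 after MRSA, 7802 after PA and 10356 after both species. Its log2 differences from media were 2.93, 2.44 and 2.85, above those of Gpnmb in each library. As said above, reads of Lyz1 cannot be told apart from those of Lyz2. Which cells the Lyz1 level came from was not tested.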
